A study of Homo sapiens with 4 samples.

Results

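Long intergenic noncoding RNAs that carry a LINC number were described in 2 human bladder cancer cell lines, T24T and EJ. The members were all genes in the deposited count table whose symbol is LINC followed by digits alone and whose counts over the 4 libraries summed to 50 or more. This gave 96 members of 967 LINC symbols and of 56303 genes in all. Another 262 LINC symbols had 1 to 49 counts and 609 had none. The members were thus chosen by their own summed counts, and that they are detected is no result. Just inside the threshold stood LINC00894 with 62 counts, LINC01399 with 60 and LINC01569 with 55, and just outside stood LINC00476 with 48, LINC00313 with 43 and LINC01125 with 43.

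The 4 groups had 1 library each, all from total RNA. T24T circ and EJ circ were cells transfected with hsa_circ_0008399, a circular RNA, which is a transcript closed into a ring by back-splicing. T24T vector and EJ vector were the same lines transfected with the vector, so all groups share the transfection itself. The study sought genes downstream of the circular RNA. The tables name the T24T line T24. Both lines are known from the literature to go back to 1 bladder tumour, the source of T24, and whether these cultures do was not examined. With 1 library a group, the transfection is repeated only across the lines, and ratios within a line have no p-value. Nothing in the labels gives separate cultures, clones or pooling, and the p-values below measure only the spread between these libraries.

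LINC symbols are given to long RNA genes that lie between protein-coding genes and had no known function when they were named. Many such RNAs are spliced and polyadenylated like messenger RNAs but are made at lower levels, in fewer cell types, and are often kept in the nucleus. Some act on the gene next to them, some bind proteins or other RNAs, and some turned out to encode small proteins and were renamed. Several have been studied in bladder and other cancers as RNAs whose level differs between tumour and normal tissue.

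The label was checked against the GENCODE release 29 and RefSeq annotations. Spans were taken from the coordinates in the count table, and GENCODE gave the gene types. By these, 77 of the 96 members lay outside the span of every gene typed as protein-coding, 19 touched such a span and 2 of those lay inside it. RefSeq types 89 members as long noncoding RNA, 6 as protein-coding and 1, LINC01296, as a transcribed pseudogene. It gives another symbol to 21 of the members. Among these LINC00152 is now CYTOR, LINC01578 is CHASERR and LINC00909 is ZNF407-AS1. The 96 members are therefore mostly, but not all, intergenic and noncoding.

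Reads were taken to be counted without regard to strand and in each of several overlapping genes, though the use of strand is not stated. This was looked at in genes of 200 bases or more that are fully covered by the exons of a gene with 500 or more counts. Of 292 such genes on the opposite strand 98.3% had reads, and of 256 on the same strand 98%. Any read counted here, also one from the covered gene itself, so these shares do not settle the use of strand. In all, 46 members share exonic bases with another gene, and 23 have a near-identical copy of 200 bases or more at 98% identity or more elsewhere in the transcriptome. The other 42 members share neither, and results are also given for these 42. Where a member shares exons, reads from the overlapping gene cannot be told apart from its own.

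Library totals were 18057768 counts in T24T circ, 16864247 in T24T vector, 14703455 in EJ circ and 15639289 in EJ vector. The members took 0.0677% of the counts in T24T circ and 0.0592% in T24T vector, and 0.0589% in EJ circ and 0.0536% in EJ vector. Summed RPKM of 12 urothelial and epithelial markers was 419 in T24T circ and 397 in T24T vector, and 261 in EJ circ and 224 in EJ vector, with UPK3A and KRT5 at 0. KRT7, KRT8 and KRT18 held nearly all of these markers' counts, while KRT19, CDH1, GATA3, UPK1B and TP63 had at most 5 in any library. The log2 fold change of T24T over EJ was 4.21 in EPCAM, 2.51 in KRT8, 1.07 in KRT18 and 0.45 in UPK2, but -0.28 in KRT7. EPCAM had 111 counts in T24T circ and 117 in T24T vector, against 4 in EJ circ and 7 in EJ vector. The sum of 6 endothelial and stromal markers lay between 0.423 and 1.03 RPKM. Whether these differences between the lines take part in the results on the members was not tested.

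Members were weakly expressed. Levels are compared between genes as RPKM, reads scaled by exonic length and by the library's total. The median of the members' mean RPKM was 1.085, against 4.33 for protein-coding genes with 50 or more counts, and 41 members were under 1. Exonic length ran over a wide range with a median of 3076 bases, and the members' summed counts lay between 55 and 3069. All but LINC00561 had reads in every library.

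A few members stood well above this median. LINC01629, a short RNA of 581 exonic bases on chromosome 14, had 47.8 RPKM in T24T circ and 38.3 in T24T vector, and 17.7 in EJ circ and 18.3 in EJ vector. LINC00342 averaged 11.7 RPKM, LINC00467 10.1 and LINC00973 9.80. LINC00342 shares 654 bases at 98.9% identity with another transcript, and reads could be assigned to either. LINC00958, an RNA studied in bladder cancer and also called BLACAT2, averaged 5.66 RPKM. By counts, which favour long genes, LINC00963 led with 3069, from 13171 exonic bases.

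Transfection with the circular RNA was compared with vector over both lines in an edgeR quasi-likelihood fit of all 17689 genes tested, which also held a term for the line, with Benjamini-Hochberg adjustment at 0.05. Among the 96 members 11 rose and 1 fell with circ. That is 12.5% called, against 12.7% of all genes tested and 10.5% of the genes within the members' range of counts. By direction, 11.5% of members rose, against 7.13% of all genes tested and 5.29% within the range of counts, and 1.04% fell, against 5.56% and 5.2%. The share of members called is thus near the background, and the calls lie mostly on the higher side. In bulk libraries, fewer cells that make an RNA and less of it per cell cannot be told apart. The median log2 fold change was 0.15 in the members and -0.0015 in all genes with 50 or more counts. Other noncoding genes with 50 or more counts, by GENCODE type, also had medians above 0. The 79 lincRNA genes that are not members had a median of 0.11, with 6 called higher and 4 lower. In the 358 antisense genes that are not members it was 0.077, with 31 called higher and 9 lower.

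These calls rest on a fit with 1 residual degree of freedom, in which the spread of a gene is mostly borrowed from other genes. None of the 12 was called by DESeq2, by limma on log2(RPKM + 1) or by edgeR without the term for cell line. DESeq2 without independent filtering gave 4 members higher at an unadjusted p under 0.05, limma on RPKM 19, and edgeR without the line term 1. Of the 42 members that share no exons and have no near copy, 5 rose and 0 fell.

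Of the members that rose, LINC00909 had the largest change. It is ZNF407-AS1 in RefSeq, an antisense RNA that starts 638 bases from the start of ZNF407, a zinc finger gene, on chromosome 18. LINC00909 had 110 counts in T24T circ against 59 in T24T vector, and 108 in EJ circ against 61 in EJ vector. Both circ libraries were above both vector libraries. Its log2 fold change was 0.87 ± 0.20 (SE), with an edgeR adjusted p of 0.00298. ZNF407 itself had a log2 fold change of 0.16 with an edgeR adjusted p of 0.479.

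LINC01060 lies on chromosome 4, with no coding gene start closer than 261317 bases. It had 168 counts in T24T circ against 95 in T24T vector, and 57 in EJ circ against 29 in EJ vector. The circ library was higher within each line, while EJ circ was below T24T vector. The log2 fold change was 0.85 ± 0.20 (SE), with an edgeR adjusted p of 0.00463. Within the lines the fold was 1.68 in T24T, with an exact 95% binomial interval of 1.30 to 2.18, and 2.10 in EJ, with an interval of 1.32 to 3.41. These intervals cover counting error only.

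LINC00963, first studied in prostate cancer, was the most counted member. It had 1099 counts in T24T circ against 758 in T24T vector, and 646 in EJ circ against 566 in EJ vector. Its log2 fold change of 0.38 ± 0.10 (SE) was the smallest of the 11, with an edgeR adjusted p of 0.00734. The higher depth gave it narrow intervals, with a fold of 1.38 in T24T (1.25 to 1.51) and of 1.22 in EJ (1.09 to 1.37).

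LINC01184 is SLC12A2-DT in RefSeq, a divergent transcript. It starts 594 bases from SLC12A2, which encodes a sodium, potassium and chloride cotransporter. LINC01184 had 403 counts in T24T circ against 247 in T24T vector, and 325 in EJ circ against 289 in EJ vector, a log2 fold change of 0.45 ± 0.12 (SE) with an edgeR adjusted p of 0.0139. It shares 0.603% of its exonic bases with another gene. SLC12A2 had a log2 fold change of -0.31 with an edgeR adjusted p of 0.091. Transcript and partner thus had values of opposite sign, and the noncoding one alone passed the test. This was the exception among the 13 members that start head to head with a coding gene, since in 12 of the 13 pairs member and partner had the same sign, some of them with values close to 0. LINC00649, LINC01481, LINC00894 and LINC01006 share exonic bases with their own partners, so the same reads may enter both values of those pairs. The share of like-signed neighbours over all genes was not examined. Spearman's rho between the log2 fold changes of members and partners was 0.49 across the 13 pairs, which share the same libraries. These starts lie within 1000 bases of each other, and the members' log2 fold change ran from -0.48 in LINC01089 to 0.87 in LINC00909, and 2 rose.

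LINC00641 had 88 counts in T24T circ against 56 in T24T vector, and 137 in EJ circ against 88 in EJ vector. Its log2 fold change was 0.67 ± 0.19 (SE), with an edgeR adjusted p of 0.0173. LINC00839 had 182 counts in T24T circ against 131 in T24T vector, and 264 in EJ circ against 202 in EJ vector, a log2 fold change of 0.45 ± 0.14 (SE) with an edgeR adjusted p of 0.0348. In both, circ was higher within each line, and the libraries of circ and vector overlapped across the lines. Together with LINC00909, LINC01060 and LINC00963 these are the 5 that rose among the members free of shared exons and copies.

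LINC01270 and LINC01271 lie on opposite strands of chromosome 20 with 1333 exonic bases in common, 44.2% of LINC01270 and 59.2% of LINC01271. If strand was not used in counting, they are largely 1 measurement. LINC01271 had 223 counts in T24T circ against 145 in T24T vector, and 34 in EJ circ against 15 in EJ vector, and LINC01270 had 230 in T24T circ against 155 in T24T vector, and 35 in EJ circ against 19 in EJ vector. Their log2 fold changes were 0.68 ± 0.20 and 0.59 ± 0.19 (SE), with edgeR adjusted p of 0.0219 and 0.0399.

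LINC00680 is typed as a transcribed pseudogene in GENCODE and shares 7.38% of its exonic bases with GUSBP1, a gene of 276 counts with a log2 fold change of 0.60. It had 41 counts in T24T circ against 23 in T24T vector, and 87 in EJ circ against 51 in EJ vector. Its log2 fold change was 0.83 ± 0.25 (SE), with an edgeR adjusted p of 0.0277. LINC00662, studied in several cancers, shares 2.07% of its exonic bases with CTC-459F4.3, which had a log2 fold change of 0.29. It had 143 counts in T24T circ against 79 in T24T vector, and 213 in EJ circ against 182 in EJ vector, a log2 fold change of 0.51 ± 0.16 (SE) with an edgeR adjusted p of 0.0311. LINC00623, the eleventh, fell outside the naming rule and is named with its values known. It had 171 counts in T24T circ against 111 in T24T vector, and 119 in EJ circ against 92 in EJ vector, and shares 737 bases at 99.6% identity with LINC00869, so that its reads are uncertain. LINC00623 also shares 12.8% of its exonic bases with 2 other genes, among them AC241377.1, which had a log2 fold change of 0.46. Its edgeR adjusted p was 0.0407.

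LINC00630 was the sole member that fell. It had 36 counts in T24T circ against 54 in T24T vector, and 40 in EJ circ against 74 in EJ vector. Both circ libraries were below both vector libraries. The log2 fold change was -0.73 ± 0.25 (SE), and the edgeR adjusted p of 0.0498 lay just under the threshold. The gene lies on chromosome X and shares 2.67% of its exonic bases with another transcript.

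**Figure D1:**
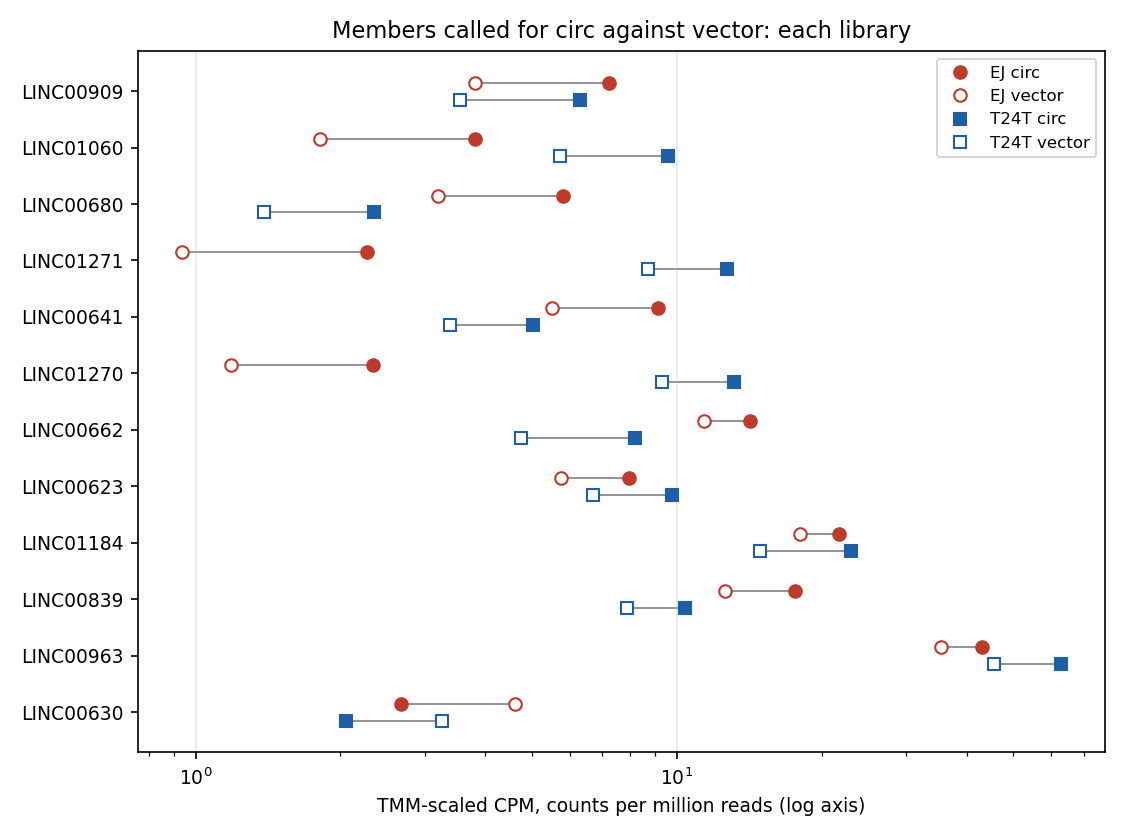
TMM-scaled CPM (log axis) of the 12 members called for circ against vector, with circ libraries as filled symbols and vector libraries as open ones, circles for EJ and squares for T24T, and a grey line joining the libraries of 1 line. The filled symbol lies to the right of the open one in both lines for the 11 members that rose, and to the left for LINC00630.

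The members known to encode proteins had values below 0. RefSeq types 6 members as protein-coding, and all 6 had a log2 fold change below 0, from -0.36 to -0.17 with a median of -0.28, while none passed the test. Of the other 90 members, 61 were above 0 and 29 below, and the median was 0.17. Protein-coding genes by GENCODE type that are not members and had 50 or more counts numbered 12352. Of these, 6043 were above 0 and 6309 below, with a median of -0.0067. LINC01420 encodes NBDY, a microprotein of the messenger RNA decapping complex. It had 138 counts in T24T circ against 159 in T24T vector, and 80 in EJ circ against 118 in EJ vector, with an edgeR adjusted p of 0.169. LINC00493 encodes SMIM26, a mitochondrial microprotein, and had 85 counts in T24T circ against 98 in T24T vector, and 37 in EJ circ against 54 in EJ vector. LINC00116, which encodes mitoregulin (MTLN), had 71 counts in T24T circ against 66 in T24T vector, and 42 in EJ circ against 61 in EJ vector, so its T24T libraries ran the other way. LINC00998, LINC00094 and LINC00854, now SMIM30, BRD3OS and CCDC200, had log2 fold changes of -0.17, -0.22 and -0.35. LINC00493 shares 13.1% of its exonic bases with DTD1, and LINC00094 shares 21.4% with BRD3. The difference between the coding and noncoding members was not tested.

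**Figure D2:**
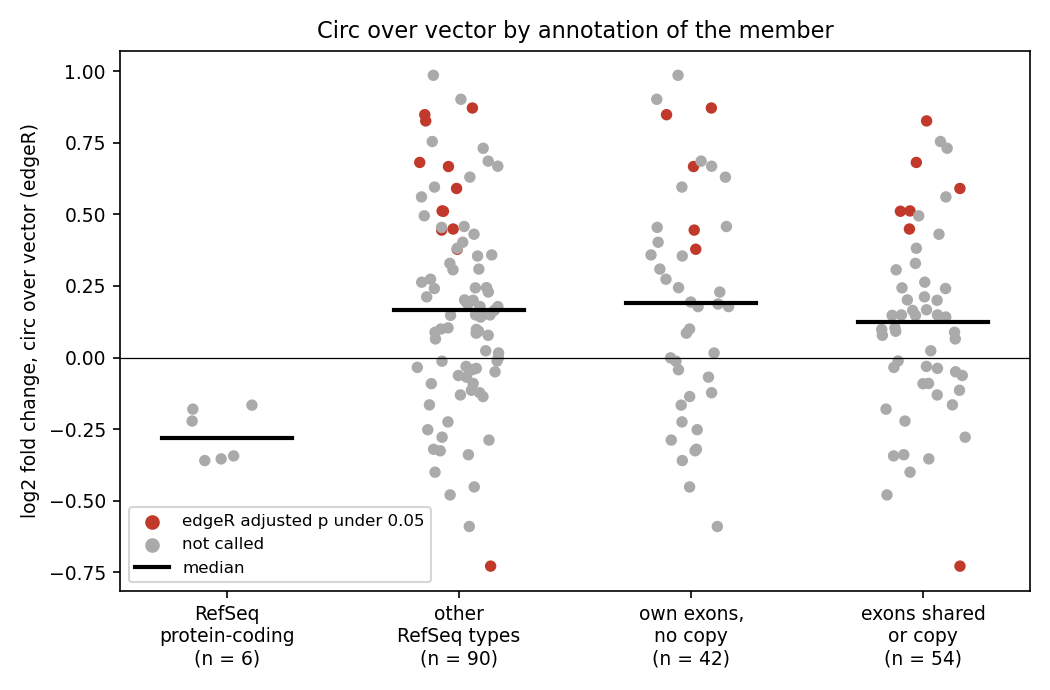
Log2 fold change of circ over vector (edgeR, both lines) for the 96 members, split by RefSeq type and, separately, by whether a member has exons of its own and no near-identical copy, with 1 point a member, red where the adjusted p is under 0.05 and a black bar at the median. The 6 members typed as protein-coding all lie below 0, and the medians of the 42 members with their own exons (0.19) and of the 54 others (0.12) lie close together.

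LINC01578, now CHASERR, is known to restrain the expression of its neighbour CHD2. It had 444 counts in T24T circ against 335 in T24T vector, and 387 in EJ circ against 330 in EJ vector. Both circ libraries were higher within their line, but the edgeR adjusted p of 0.0508 lay just over the threshold. It shares 4.17% of its exonic bases with RP11-437B10.1, a gene of 4447 counts. That gene rose with circ, with a log2 fold change of 0.48 and an edgeR adjusted p of 0.00041. Also just over the threshold were LINC00467 at 0.0581, LINC00886 at 0.06 and LINC00941 at 0.0615.

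Of 25 LINC RNAs listed for their study in cancer, 12 were members, and of these 2 rose, LINC00963 and LINC00662, and 0 fell. That is 16.7% higher, against 7.13% of all genes tested, and none lower, against 5.56%, in a list of few genes. LINC00152, also called CYTOR, had 362 counts in T24T circ against 334 in T24T vector, and 204 in EJ circ against 230 in EJ vector, a log2 fold change of -0.01. LINC00152 shares 2254 bases at 99.2% identity with MIR4435-2HG, and reads could be assigned to either. LINC00511 had a log2 fold change of -0.11 and LINC00958 of 0.10. LINC00941 had 123 counts in T24T circ against 65 in T24T vector, and 62 in EJ circ against 55 in EJ vector. Beside them, 32 other long noncoding RNAs gave 24 tested genes, of which 6 rose (25%, against 7.13% of all genes tested) and 1 fell (4.17%, against 5.56%). ZFAS1 had a log2 fold change of 0.56 with an edgeR adjusted p of 2.64e-05 and OIP5-AS1 of -0.44 with an adjusted p of 0.00169.

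Within each line the members' ratios of circ over vector were described without a test. In 42 of the 96 members (43.8%) circ was higher in both lines, against 33.4% of all genes tested. Circ was lower in both lines in 18 (18.8%, against 32.3%), and the lines went opposite ways in 35, or 36.5% against 33.8%. The counting interval of the fold lay above 1 in both lines for 15 members and below 1 in both for 1, LINC00630. No share over all genes tested stands beside these counts. The 15 members above 1 hold 10 of the 11 that rose. LINC00680 is the exception, since its T24T interval of 0.992 to 2.95 reaches below 1.

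A fold of 2 was passed in EJ by 4 members higher (4.17%, against 2.26% of all genes tested) and 1 lower (1.04%, against 1.57%). In T24T none passed it in either direction, against 2.52% higher and 1.39% lower among all genes tested. The 4 in EJ were LINC01271, LINC01060, LINC00886 with 23 counts in circ against 11 in vector, and LINC01024 with 25 in circ against 11 in vector. LINC00920 had 9 counts in EJ circ against 22 in EJ vector. LINC01271, with 49 counts in EJ, and LINC00886, LINC01024 and LINC00920 fell outside the rule for naming by ratio in EJ, which asked for 50 counts there. These folds rest on few reads.

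Several members had unlike ratios of circ over vector in the lines. For each one named here the counting intervals of the lines overlapped. LINC00346 had 75 counts in T24T circ against 39 in T24T vector, and 31 in EJ circ against 36 in EJ vector. Its intervals were 1.22 to 2.76 in T24T and 0.551 to 1.53 in EJ. LINC00941 likewise had a fold of 1.80 in T24T, with an interval of 1.32 to 2.46, and of 1.21 in EJ, with an interval of 0.825 to 1.77. LINC01572 went the other way, with 68 counts in T24T circ against 95 in T24T vector, and 57 in EJ circ against 58 in EJ vector. Its intervals were 0.490 to 0.937 in T24T and 0.716 to 1.54 in EJ. It shares 31.8% of its exonic bases with AC004158.3, which had a log2 fold change of -0.57. With 1 library a group the difference between the lines was not tested.

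**Figure D3:**
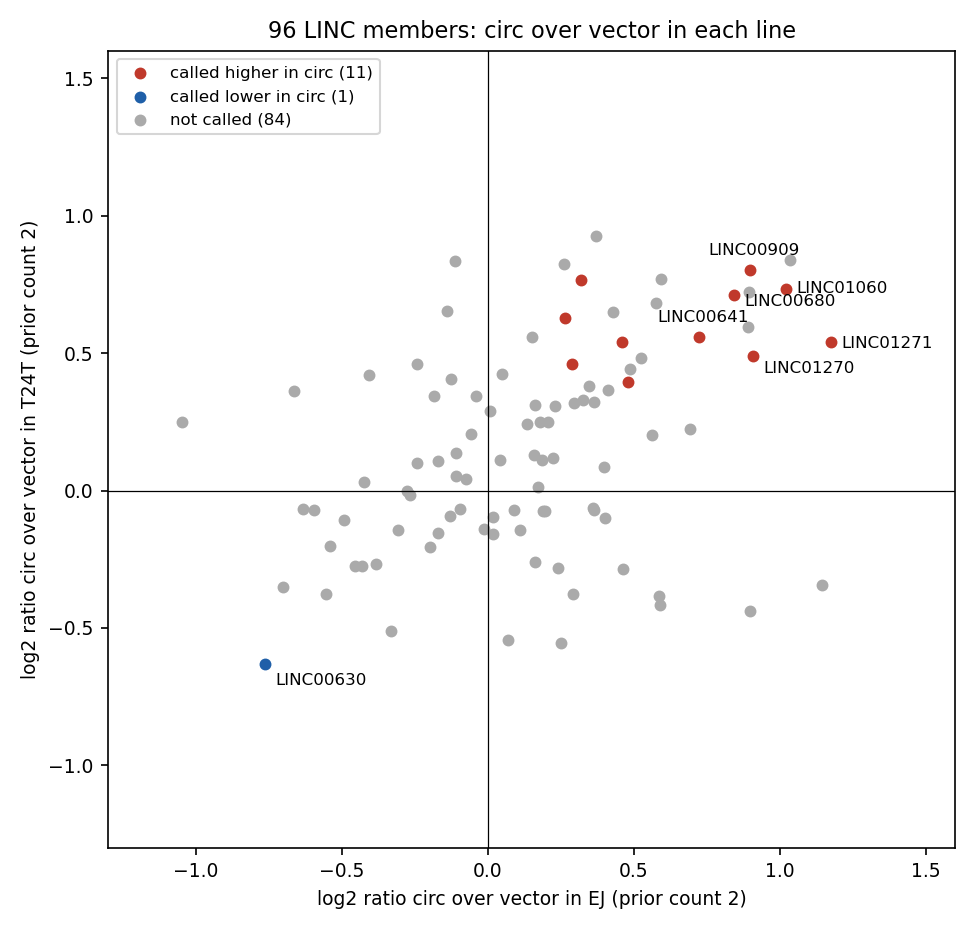
Log2 ratio of circ over vector in EJ (horizontal axis) and in T24T (vertical axis) for the 96 members, each with a prior count of 2, coloured by the edgeR call over both lines. The 11 members that rose lie at the upper right, LINC00630 at the lower left, and in 35 members the lines go opposite ways.

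The lines themselves were compared in the same edgeR fit, with transfection as the other term. Of the 96 members 21 were higher and 12 lower in T24T than in EJ, 34.4% in all, against 41.4% of all genes tested and 39.7% of the genes within the members' range of counts. Among all genes tested 21.9% were higher and 19.5% lower. Members that are high in 1 line can pass the count threshold through that line alone. A member was called restricted to a line where 90% or more of its scaled counts were in that line. One member, LINC00561, was restricted to EJ and 0 to T24T, or 1.04% of members. Of all genes with 50 or more counts 1.96% were restricted, 1.44% to T24T and 0.519% to EJ.

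LINC00561 was not detected in T24T. It had 0 counts in T24T circ and 0 in T24T vector, against 39 in EJ circ and 51 in EJ vector. Set against the limit that a count of 0 allows, 3 counts over the line's libraries, it was at least 33.0-fold lower in T24T, and T24T holds at most 2.94% of its counts. The gene is a single stretch of 2738 exonic bases on the minus strand of chromosome 13, and shares no exonic bases with another gene. Within EJ, circ and vector differed by less than the counting error, with a fold of 0.818 and an interval of 0.525 to 1.27.

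On the T24T side 5 members (5.21%, against 3.07% of all genes with 50 or more counts) had 80% or more of their counts in T24T, though none reached 90%. LINC00665, studied in several cancers, had 80 counts in T24T circ and 93 in T24T vector, against 11 in EJ circ and 8 in EJ vector. Its log2 fold change of T24T over EJ was 3.03 ± 0.32 (SE), with an edgeR adjusted p of 2.60e-09, and it shares 251 bases at 98.8% identity with LINC01535. LINC01127 had 155 counts in T24T circ and 93 in T24T vector, against 17 in EJ circ and 13 in EJ vector, a log2 fold change of 2.88 ± 0.26 (SE) with an edgeR adjusted p of 8.20e-11. In both, every T24T library was above every EJ library. The overlapping pair LINC01271 and LINC01270 followed at 2.76 and 2.68, and LINC01588 at 2.02. LINC01127 and LINC01588 are named with their values known.

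Among the more abundant members, LINC00467 had 1222 counts in T24T circ and 937 in T24T vector, against 452 in EJ circ and 412 in EJ vector, a log2 fold change of 1.17 ± 0.10 (SE) with an edgeR adjusted p of 8.90e-12. LINC00973 had 242 in T24T circ and 242 in T24T vector, against 78 in EJ circ and 73 in EJ vector. LINC00958 had 407 in T24T circ and 404 in T24T vector, against 153 in EJ circ and 127 in EJ vector. LINC01629 was likewise higher in T24T, with a log2 fold change of 1.32 ± 0.13 (SE).

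Lower in T24T were LINC00342, with 346 counts in T24T circ and 244 in T24T vector, against 663 in EJ circ and 686 in EJ vector, and LINC00680 and LINC00662. The log2 fold change of T24T over EJ was -1.35 in LINC00342 and -1.26 in LINC00680. Every T24T library lay below every EJ library for each of these genes in scaled counts. LINC00680 and LINC00662 also rose with circ, as did LINC01060, LINC01270 and LINC01271 on the side that is higher in T24T. Of the 11 that rose with circ, 4 were higher in T24T, 4 were lower and 3 were not called between the lines.

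**Figure D4:**
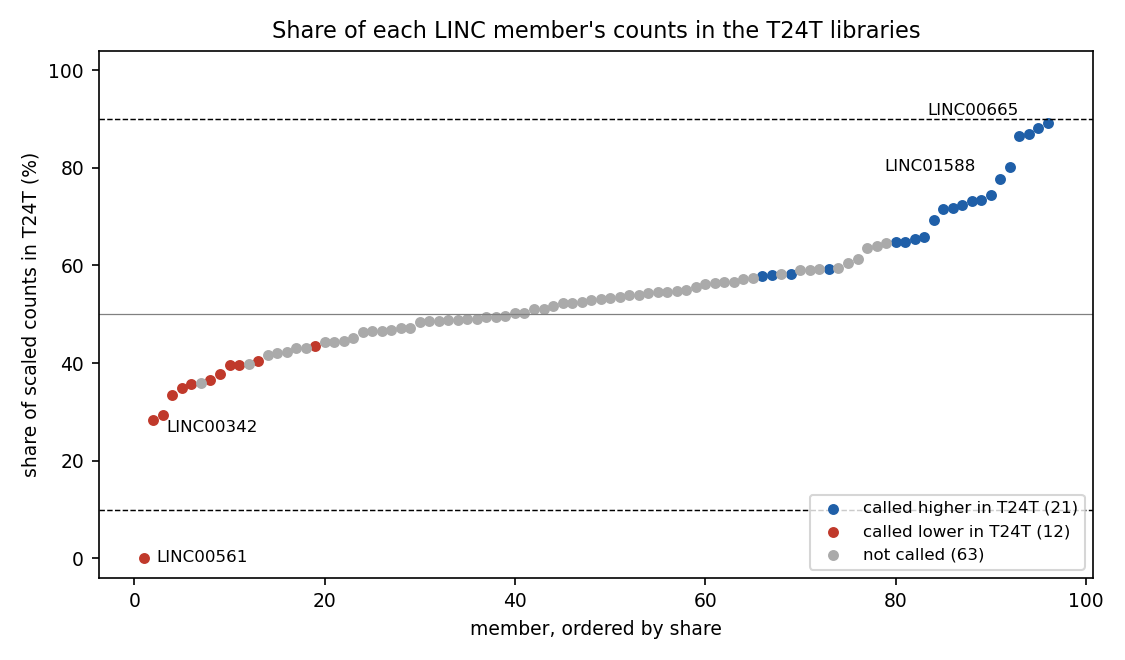
Share of each member's scaled counts in the T24T libraries (percent), with the 96 members in order of share, coloured by the edgeR call between the lines, a grey line at 50% and dashed lines at 10% and 90%. LINC00561 lies at 0%, and LINC00665 at 89.2% is the closest to the upper line.

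Start regions of 300 bases, 250 before and 50 after the annotated start, were taken from RefSeq (GRCh38.p14) for the 78 members that it lists by symbol. They are shown for members whose RefSeq start lies within 100 bases of the end in the count table: the overlapping chromosome 20 pair, a pair of members that rose with exons of their own, the one that fell and the one restricted to EJ. Capitals mark matches, on either strand, to any of 7 short motifs, the GC box GGGCGG, the CCAAT box, the TATA box TATAAA, the AP-1 letters TGANTCA, the cyclic AMP element (CRE) TGACGTCA, the E box CACGTG and the ATF4 element TGATGNAA. Overlapping matches share their capitals.
LINC01270, chr20:50292470-50292769, plus strand: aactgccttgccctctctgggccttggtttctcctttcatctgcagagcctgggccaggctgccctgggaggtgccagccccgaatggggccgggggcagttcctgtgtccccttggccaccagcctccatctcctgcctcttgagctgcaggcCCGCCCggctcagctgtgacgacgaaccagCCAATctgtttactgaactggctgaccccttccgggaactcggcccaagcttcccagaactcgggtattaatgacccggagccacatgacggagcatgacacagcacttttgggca
LINC01271, chr20:50321293-50321592, minus strand: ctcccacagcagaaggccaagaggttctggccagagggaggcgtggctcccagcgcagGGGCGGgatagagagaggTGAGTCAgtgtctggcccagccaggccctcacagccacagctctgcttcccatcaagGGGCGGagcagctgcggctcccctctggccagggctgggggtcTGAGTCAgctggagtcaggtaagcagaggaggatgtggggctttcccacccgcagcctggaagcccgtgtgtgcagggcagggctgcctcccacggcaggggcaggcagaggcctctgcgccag
LINC00839, chr10:42475241-42475540, plus strand: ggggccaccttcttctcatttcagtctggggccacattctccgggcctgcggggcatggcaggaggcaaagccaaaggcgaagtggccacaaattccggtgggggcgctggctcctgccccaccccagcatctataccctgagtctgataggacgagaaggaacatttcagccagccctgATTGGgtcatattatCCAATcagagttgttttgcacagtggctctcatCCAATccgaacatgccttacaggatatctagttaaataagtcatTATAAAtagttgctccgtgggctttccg
LINC00641, chr14:21206851-21207150, minus strand: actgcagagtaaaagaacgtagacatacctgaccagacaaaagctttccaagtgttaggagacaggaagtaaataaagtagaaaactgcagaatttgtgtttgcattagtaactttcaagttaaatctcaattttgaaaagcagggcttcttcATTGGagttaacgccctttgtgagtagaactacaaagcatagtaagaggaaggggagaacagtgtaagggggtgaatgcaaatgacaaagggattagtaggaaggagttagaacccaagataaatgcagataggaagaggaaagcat
LINC00630, chrX:102768903-102769202, plus strand: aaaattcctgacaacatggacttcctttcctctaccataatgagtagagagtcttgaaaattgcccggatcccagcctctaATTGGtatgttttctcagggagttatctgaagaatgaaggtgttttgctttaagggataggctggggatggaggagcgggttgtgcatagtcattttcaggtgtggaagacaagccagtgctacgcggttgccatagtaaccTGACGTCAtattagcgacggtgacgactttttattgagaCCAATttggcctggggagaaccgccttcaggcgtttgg
LINC00561, chr13:75935083-75935382, minus strand: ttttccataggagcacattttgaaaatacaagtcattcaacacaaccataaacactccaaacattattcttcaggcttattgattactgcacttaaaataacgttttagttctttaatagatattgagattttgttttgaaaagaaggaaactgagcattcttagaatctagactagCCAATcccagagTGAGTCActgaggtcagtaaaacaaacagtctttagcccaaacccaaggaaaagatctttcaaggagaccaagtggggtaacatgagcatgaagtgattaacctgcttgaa
LINC01271 holds the AP-1 letters 2 times and LINC00561 has them 1 time, LINC00630 has the CRE letters, and LINC00839 has the TATA letters. The CCAAT letters stand in every region shown but that of LINC01271, and the GC box letters in LINC01270 and LINC01271. The AP-1 letters stood in 13 of the 78 members (16.7%), against 7.71% of 35116 promoters of the same length, and in 2 of the 10 members that rose and have a start region. All motif shares here take every one of the 78 regions, also where the RefSeq start lies more than 100 bases away. For LINC00963, 1 of those 2 members, it lies 5209 bases from the end in the count table. The CRE letters stood in 2.56% of members and 1.85% of all. Of the other motifs, the GC box stood in 51.3% of members against 45% of all, and the CCAAT box in 43.6% against 34.6%. The TATA box stood in 10.3% against 11.5%, the E box in 5.13% against 7.26% and the ATF4 element in 2.56% against 3.62%. These differences were not tested. GC content had a median of 60.8% in the members' start regions and 58.7% in all. A match describes the letters and not a site of binding.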

How the data were processed

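Per the submitters' processing notes, reads were trimmed with Trimmomatic and aligned with HISAT2 to hg38. The counting tool, its annotation and the use of strand are not given in the sources used here. The authors deposited read counts per gene and RPKM values. The deposited RPKM equalled count over length and library total in 100% of values, within a relative tolerance of 1e-06. Columns were matched to samples by description, and 0 sample columns were left out.

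Counts were tested with edgeR 4.0.16 (TMM, quasi-likelihood, 10 or more counts in a library and 20 or more in all). Ratios within a line used a prior count of 2. DESeq2 1.42.0 and limma 3.58.1 were alternatives. Overlaps were found with bedtools 2.31.1 and copies with blastn 2.17.0. The edgeR script was tested on simulated data. The members and the lists were chosen with earlier results of these data known. Members were named by count, RPKM, smallest adjusted p, restriction, ratio, list or nearness to the threshold, and the text says where another was added. One other marker list is not reported here.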

Additional observations from a re-analysis of the deposited data

How the results depend on the processing

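Of members higher with circ (11) and lower (1), DESeq2 called 0 and 0, also without independent filtering, as did limma on log2(RPKM + 1) and edgeR without the term for cell line. DESeq2 gave an adjusted p to only 4 members under independent filtering. RLE scaling, library size alone, no filter, 50 counts per line and limma-voom gave 10 to 14 higher and 1 lower. The 42 members with their own exons gave 5 and 0. Of members higher in T24T (21), 12 were left with 50 counts in each line, 11 by DESeq2, also without independent filtering, and 11 among those 42. Of members lower in T24T (12), DESeq2 called 3, also without independent filtering, edgeR without the transfection term 5, and those 42 held 7. The 2-fold counts in EJ (4 higher, 1 lower) came to 0 and 0 with a prior count of 10 or on log2(RPKM + 1), to 1 and 0 on log2(RPKM + 0.1), to 1 and 0 with 50 counts in the line, and to 15 and 6 at a 1.5-fold threshold. In T24T that threshold gave 15 and 1. Restriction to T24T (0) came to 5 at 80%, to 2 in the vector libraries alone and to 1 at 20 counts over the libraries. Restriction to EJ (1) came to 3 at 20 counts and to 0 at 100 counts. No named member called for circ against vector or between the lines changed sign under the alternatives to the edgeR fit, but for circ against vector the uncalled LINC00973 (0.0161) came to -0.00181 with library size alone and to -0.00497 without the line term, and the uncalled LINC00665 (-0.165) to 0.00881 by DESeq2 without independent filtering. The cause of these changes was not tested, apart from the fewer members that a stricter filter leaves. DESeq2 without independent filtering and the split by shared exons were added after the data had been seen. The main fit is itself paired by cell line, and its value without that pairing is given above. Replicate numbers pair nothing further, since each group has 1 library. Low depth limits members under about 50 counts in a line, where folds near 2 rest on few reads.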
